A study of Mus musculus with 28 samples.

Results

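The genes described here act in the repair of double-strand breaks in DNA. The set was defined by name, as all probes of 9 listed genes, and it comprises 19 of the 45281 probes and 9 of the 19057 genes with a probe on the array. Homologous recombination is represented by Brca1, Brca2, Fancd2, Rad54l and Chek1 with 12 probes, and end joining by Xrcc5, Xrcc6, Lig4 and Prkdc with 7 probes. The question was whether genes of these repair routes differed between plasma cell tumors and normal B cells, and between tumor kinds.

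RNA was measured on Illumina bead arrays in 28 mouse samples on the BALB/c background. Normal B cells were 3 spleen samples from BALB/c mice aged 90 days. Plasma cell tumors of the strain C.iMyc/IL-6, which combines an inserted Myc gene with an IL-6 transgene, came in 2 kinds. The 14 adoptive-transfer tumors followed the transfer of premalignant B cells and were sampled from oil granuloma tissue at 105 to 158 days, and the 11 spontaneous tumors were sampled from lymph node tissue at 40 to 162 days. The normal samples carry no C.iMyc/IL-6 label, so transgenes and tumor state cannot be told apart here, and neither can tumor kind and tissue. All groups share the BALB/c background, which is known to carry a Prkdc allele of lowered activity. The labels do not state that samples came from separate animals, so p-values measure the spread between these samples, which may be technical. Each tumor was ground as whole tissue, and in such bulk samples fewer cells of a type and less RNA per cell cannot be told apart.

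Homologous recombination rejoins a break by copying the intact sister chromatid, and it operates after DNA has been replicated. End joining ligates the broken ends directly, works through the whole cell cycle, and in B cells also completes V(D)J recombination and class switching of antibody genes. Translocations that join Myc to antibody genes in mouse plasma cell tumors pass through such breaks, although here the inserted Myc gene is part of the strain.

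Promoter sequence was available for 7 of the 9 members in the RefSeq table for GRCm38.p6, as windows from 250 bases before to 50 bases after the annotated start. Windows for Brca2, Rad54l and Xrcc6 are shown because these 3 genes were called higher in adoptive-transfer tumors and are compared with cell cycle genes below. Capitals mark matches, on either strand, to words of the E2F site (TTTCCCGC, TTTGGCGC, TTTCGCGC, TTTGCCGC), to the CHR words TTTGAA and TTCGAA, and to CCAAT, which are elements known from promoters of cell cycle genes. The matches do not overlap one another, and the Brca2 and Xrcc6 windows lie wholly inside the annotated intervals of their genes.
Brca2 (chr5:150522371-150522670, plus strand): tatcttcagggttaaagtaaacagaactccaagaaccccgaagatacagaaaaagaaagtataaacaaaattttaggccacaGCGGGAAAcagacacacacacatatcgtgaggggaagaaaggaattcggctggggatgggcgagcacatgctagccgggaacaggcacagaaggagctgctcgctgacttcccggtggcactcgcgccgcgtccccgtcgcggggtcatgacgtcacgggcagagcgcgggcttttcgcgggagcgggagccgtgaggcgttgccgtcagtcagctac
Rad54l (chr4:116123641-116123940, minus strand): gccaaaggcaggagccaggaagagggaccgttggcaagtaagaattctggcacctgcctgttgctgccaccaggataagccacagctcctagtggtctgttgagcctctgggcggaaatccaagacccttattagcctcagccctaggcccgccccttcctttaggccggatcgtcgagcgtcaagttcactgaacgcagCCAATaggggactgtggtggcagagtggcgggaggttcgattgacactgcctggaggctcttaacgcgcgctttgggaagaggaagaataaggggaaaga
Xrcc6 (chr15:82016119-82016418, plus strand): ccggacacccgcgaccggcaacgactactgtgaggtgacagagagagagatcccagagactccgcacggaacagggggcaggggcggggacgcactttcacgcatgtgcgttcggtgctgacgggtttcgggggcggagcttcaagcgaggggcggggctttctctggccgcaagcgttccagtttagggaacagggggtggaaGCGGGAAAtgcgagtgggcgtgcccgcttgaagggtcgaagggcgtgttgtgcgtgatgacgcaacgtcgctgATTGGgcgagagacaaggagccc
The Brca2 window held 1 E2F word, TTTCCCGC on the reverse strand, with its first base at -168 relative to the start. The Xrcc6 window held the same E2F word at -46 and CCAAT at 27, both on the reverse strand, and the Rad54l window held CCAAT at -50. Brca1 had CCAAT at -86 and Xrcc5 had it at -169, whereas the windows of Chek1 and Lig4 held none of the words, and no member window held a CHR word. An E2F word occurred in 2.26% of all 32851 windows of 300 bases, a CHR word in 19.2% and CCAAT in 37.4%. In the 35 windows found for the listed mitosis and DNA replication genes, whether tested below or not, 10 held an E2F word, 17 a CHR word and 27 CCAAT. A match describes letters and does not show that a factor binds.

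Values are log2 intensities after background correction and quantile normalization, and a probe counts as detected where its detection p is under 0.05. Detected probes numbered 15633 to 16866 on the normal arrays, 11544 to 16827 for the adoptive-transfer kind and 14472 to 16756 for the spontaneous kind. Tumor 1 (11544 probes) and tumor 5 (13669 probes) of the adoptive-transfer kind were the lowest. Tumor 5 was also the lowest of its kind for Fancd2, Rad54l and Xrcc6. It had the highest marker means of all 28 samples for T cells (9.31, against at most 7.95 in any other sample), neutrophils (9.75 against 8.37) and erythroid cells (9.48 against 8.83). Its plasma cell mean of 7.53 lay within the 7.52 to 7.65 of normal B cells and below the 8.49 to 10.1 of the other tumors. The part of these cell types in its results was not tested, and values without it are given where they change a call. All 7 tested mature B cell markers of 10 listed were called lower in both tumor kinds, while 7 of 10 plasma cell markers were called higher in the adoptive-transfer and 6 of 10 in the spontaneous kind. Over all genes tested, 16.7% and 17.9% were called lower and 19.8% and 18.5% higher in these kinds. Fibroblast and matrix markers averaged 4.67 to 4.69 in normal B cells, where none of the 10 was detected, 5.95 to 9.64 in the adoptive-transfer kind and 7.24 to 8.95 in the spontaneous kind. Exocrine pancreas markers averaged 4.86 to 5.11 in normal B cells, 4.85 to 8.70 in the adoptive-transfer kind and 4.80 to 14.6 in the spontaneous kind. Xist was detected in 0 of 3 normal, 14 of 14 adoptive-transfer and 6 of 11 spontaneous samples, and the Y-linked Eif2s3y in 3, 0 and 8, so sex-linked signal also differed between the groups, and its part in the results was not tested.

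The brightest probe of a gene stood for it, and 7 of the 9 members passed the filter of detection on at least 3 arrays. Chek1, the checkpoint kinase that acts when replication stalls, has 3 probes at chr9:36708482-36726658, and none was detected on any of the 28 arrays. Xrcc5, which encodes Ku80, a subunit of the Ku ring that binds broken ends, lies at chr1:72307417-72394953, and its single probe was also detected on no array. No difference can be read for these genes at this signal over background. The remaining members were tested with a single limma model over all 28 arrays, with Benjamini-Hochberg adjustment over 11804 genes and a call at adjusted p under 0.05.

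In adoptive-transfer tumors 3 recombination genes, Fancd2, Rad54l and Brca2, were called higher than in normal B cells, and none was called lower. Of the 3 tested end joining genes, Xrcc6 was called higher, Prkdc was called lower and Lig4 was not called. In spontaneous tumors the same 3 recombination genes were called higher, Prkdc was called lower, and Xrcc6 and Lig4 were not called. Over all 11804 genes, 36.5% were called in adoptive-transfer tumors, with 19.8% called higher and 16.7% called lower. In spontaneous tumors 36.4% were called, with 18.5% higher and 17.9% lower. These comparisons share the same 3 normal samples and are not independent of each other. Some genes are said below to lie wholly above or below the normal samples, or not to overlap with them. The share of all genes that separate in this way from 3 samples was not computed. Such separation is therefore a description and not a trait particular to a gene.

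**Figure D1:**
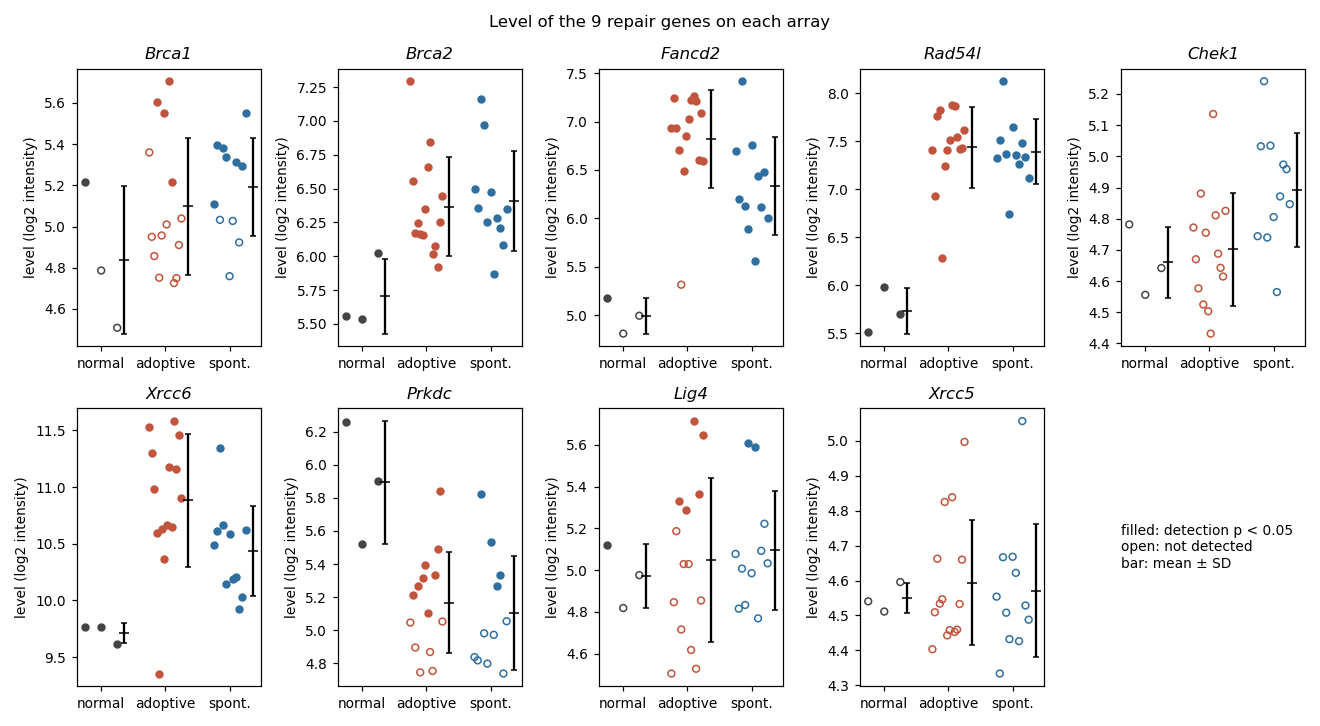
Level of each of the 9 genes on every array, as log2 intensity of the brightest probe, by group (normal B cells, adoptive-transfer and spontaneous tumors). Filled points were detected, open points were not, and bars give mean ± SD. Fancd2 and Rad54l in tumors lie above all 3 normal samples, Xrcc6 does so except in adoptive-transfer tumor 5, Prkdc lies mostly below, and Chek1 and Xrcc5 have open points only. Each panel has its own scale.

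Fancd2 encodes a Fanconi anemia protein that is ubiquitinated at stalled forks and channels crosslink repair into recombination (chr6:113531640-113597020, GRCm38.p6). Its level was 5.18, 4.81 and 5.00 in the 3 normal samples, with detection in 1 of them. It ranged from 5.32 to 7.27 with a median of 6.93 in adoptive-transfer tumors, and from 5.56 to 7.42 with a median of 6.20 in spontaneous tumors. Every tumor was above every normal sample, and the lowest adoptive-transfer value came from tumor 5, where the probe was not detected. The difference from normal was 1.82 ± 0.30 (log2, SE, 14 against 3 samples; limma adjusted p = 2.02e-05) in adoptive-transfer tumors, a 3.54-fold higher level. In spontaneous tumors it was 1.34 ± 0.31 (11 against 3 samples; limma adjusted p = 0.00103), or 2.53-fold. The second Fancd2 probe, which was detected in no normal sample and in 11 of 14 and 7 of 11 tumors, was at least 1.23-fold higher in adoptive-transfer tumors (adjusted p = 0.0303 over 22537 probes, limma). In spontaneous tumors the bound was 1.13-fold and the probe was not called (limma adjusted p = 0.0764). Such a bound takes, for each array of the undetected group, the higher of the probe's own value and the lowest detected signal on that array. The second Fancd2 probe passed the detection filter through tumors alone, where it is higher, so its p-values are no separate support.

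Rad54l encodes RAD54, a motor protein of homologous recombination that moves along double-stranded DNA (chr4:116094261-116123700). Its level was 5.51, 5.98 and 5.70 in normal B cells. It ran from 6.28 to 7.87 with a median of 7.47 in adoptive-transfer tumors and from 6.74 to 8.12 with a median of 7.36 in spontaneous tumors. All 25 tumors were above all normal samples, with adoptive-transfer tumor 5 again the lowest of its kind. Rad54l rose by 1.70 ± 0.24 (limma adjusted p = 2.12e-06, 14 against 3 samples) and by 1.66 ± 0.25 (limma adjusted p = 4.75e-06, 11 against 3 samples), which is 3.26-fold and 3.15-fold. The other Rad54l probe was detected on 1 of 28 arrays and was not tested.

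Brca2 encodes a mediator of homologous recombination that binds single-stranded DNA (chr5:150522297-150570147). Its level was 5.55, 5.53 and 6.02 in normal B cells. It ranged from 5.92 to 7.29 with a median of 6.25 in adoptive-transfer tumors, highest in tumor 1, and from 5.87 to 7.16 with a median of 6.35 in spontaneous tumors. The groups overlapped, since 12 of 14 and 10 of 11 tumors exceeded the highest normal sample. The difference was 0.66 ± 0.23 (limma adjusted p = 0.0262, 14 against 3 samples) in adoptive-transfer and 0.71 ± 0.24 (limma adjusted p = 0.0211, 11 against 3 samples) in spontaneous tumors. Without normal sample 1 these differences were 0.59 and 0.63, without normal sample 2 they were 0.58 and 0.62, with arrays scaled by their medians 0.31 and 0.42, and without background correction 0.23 and 0.25. None of these passed the threshold, and neither did the 0.26 of adoptive-transfer tumors in the deposited log2 values. A second probe of Brca2, not detected in normal B cells, was detected in 6 of 14 and 8 of 11 tumors. It was not called in adoptive-transfer tumors (adjusted p = 0.223 over probes, limma) and was at least 1.15-fold higher in spontaneous tumors (adjusted p = 0.0488, limma). This second probe likewise passed the detection filter through tumors alone, so its p-values are no separate support. The third probe was detected on no array.

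Brca1 encodes the scaffold that promotes end resection and recruits PALB2 and BRCA2 (chr11:101488761-101551955). Its brighter probe read 5.22, 4.79 and 4.51 in normal B cells, 4.73 to 5.71 in the adoptive-transfer kind and 4.76 to 5.55 in the spontaneous kind. The probe was near background, with detection in 1 of 3, 4 of 14 and 7 of 11 samples, and the groups overlapped. Its differences from normal were 0.26 ± 0.20 (limma adjusted p = 0.338, 95% interval -0.15 to 0.67) and 0.36 ± 0.21 (limma adjusted p = 0.188, interval -0.06 to 0.78). In spontaneous tumors Brca1 was called higher under 1 of 43 alternatives (lowest limma adjusted p = 0.0102).

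Xrcc6 encodes Ku70, which with Ku80 forms the ring that first binds a broken end (chr15:81987833-82040085). Its level was 9.77, 9.76 and 9.61 in normal B cells. It ranged from 9.35 to 11.6 with a median of 10.9 in adoptive-transfer tumors and from 9.92 to 11.3 with a median of 10.5 in spontaneous tumors. Tumor 5 of the adoptive-transfer kind was below all normal samples, while the other 13 and all 11 spontaneous tumors were above them. The difference was 1.17 ± 0.31 (limma adjusted p = 0.00318, 14 against 3 samples) in adoptive-transfer tumors, a 2.25-fold higher level, and with median scaling it was 0.86 and not called. In spontaneous tumors it was 0.72 ± 0.31 (limma adjusted p = 0.0726, 11 against 3 samples, 95% interval 0.08 to 1.36). Leaving out adoptive-transfer tumor 5, which enters this comparison through the shared estimate of spread, left the spontaneous difference at 0.72 and gave it an adjusted p of 0.0206 in limma, in a fit where 40.2% of all genes were called, within a range of 0.000203 to 0.981 over all alternatives. The other 2 Xrcc6 probes went the same way, by 1.14 ± 0.44 and 1.20 ± 0.33 in adoptive-transfer tumors (limma adjusted p = 0.0430 and 0.00468) and by 0.97 ± 0.45 and 0.88 ± 0.33 in spontaneous tumors (limma adjusted p = 0.0947 and 0.0399).

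Prkdc encodes the catalytic subunit of the DNA-dependent protein kinase, which Ku recruits to the end (chr16:15637444-15842239). Its level was 6.26, 5.52 and 5.90 in normal B cells. It ran from 4.75 to 5.84 with a median of 5.16 in adoptive-transfer tumors and from 4.74 to 5.82 with a median of 4.98 in spontaneous tumors. Below all normal samples were 13 of 14 and 9 of 11 tumors. The probe was detected in 8 of all 14 and 4 of all 11 tumors, against 3 of 3 normal samples. Prkdc fell by 0.73 ± 0.22 (limma adjusted p = 0.0084, 14 against 3 samples) and by 0.79 ± 0.22 (limma adjusted p = 0.00534, 11 against 3 samples). Without normal sample 1, the highest of the 3, the differences were -0.54 and -0.60 and were not called. The second Prkdc probe did not overlap between normal B cells and either tumor kind, while the tumor kinds overlapped each other. It read 5.84 to 6.04 in normal B cells, 4.62 to 5.68 in the adoptive-transfer kind and 4.56 to 5.20 in the spontaneous kind. It fell by 0.91 ± 0.18 in adoptive-transfer tumors (adjusted p = 0.000273 over probes, limma). In spontaneous tumors this probe was detected in 0 of 11 samples, which gives a level at least 1.72-fold lower than normal (limma adjusted p = 1.89e-05).

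Lig4 encodes the ligase that seals the ends together with XRCC4 (chr8:9970020-9977680). Its level was 5.12, 4.82 and 4.98 in normal B cells, 4.51 to 5.71 in the adoptive-transfer kind and 4.77 to 5.61 in the spontaneous kind, with detection in 1 of 3, 5 of 14 and 2 of 11 samples. The groups overlapped, and the differences were 0.08 ± 0.22 (limma adjusted p = 0.833, 95% interval -0.38 to 0.53) and 0.12 ± 0.23 (limma adjusted p = 0.729, interval -0.34 to 0.58).

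Counted over probes rather than genes, 12 of the 19 member probes passed the same filter. In adoptive-transfer tumors 7 were called higher and 2 lower, where 34.7% of all 22537 probes were called, 15.9% higher and 18.8% lower. In spontaneous tumors 5 were called higher and 2 lower, where 34.3% of probes were called, 15.3% higher and 19.1% lower. Between the tumor kinds no member probe was called, where 2.14% of probes were called, 0.927% higher and 1.21% lower in the adoptive-transfer kind. The probes called lower in both were those of Prkdc, and no gene had probes called in opposite directions. The counts called higher include the second Fancd2 probe in adoptive-transfer and the second Brca2 probe in spontaneous tumors. Both passed the filter through tumors alone.

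**Figure D2:**
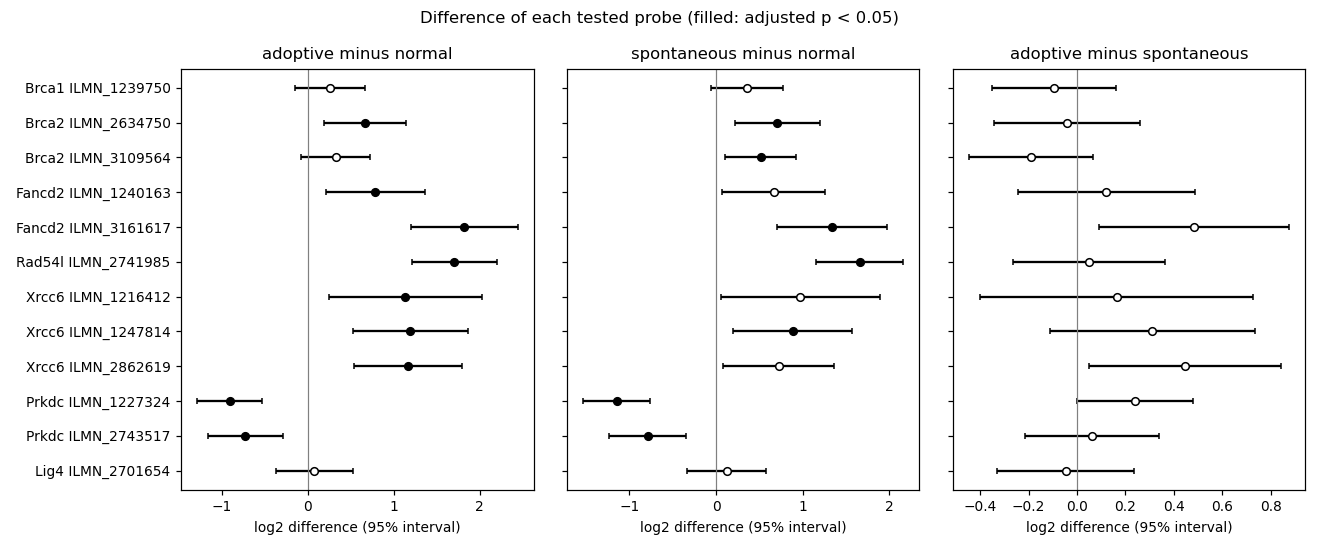
Log2 difference of each of the 12 tested member probes, with 95% confidence intervals, for adoptive-transfer minus normal, spontaneous minus normal and adoptive-transfer minus spontaneous samples. Filled points have an adjusted p under 0.05 over 22537 probes. The second probes of Fancd2 and Brca2 were not detected in normal B cells and the second Prkdc probe was not detected in spontaneous tumors, so their points there are fitted values near background. All tested probes of Fancd2, Rad54l and Xrcc6 lie above 0 against normal B cells, both Prkdc probes lie below 0, and no point is filled between the tumor kinds.

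Set side by side within each sample, the median of the tested recombination genes stood further above the normal level than that of the end joining genes in nearly all tumors. The end joining median is in effect a single gene, since Lig4, a probe near background, was the middle of the 3 genes in 12 of 14 adoptive-transfer and 9 of 11 spontaneous tumors and in all 3 normal samples. The median over the 4 tested recombination genes of the difference from the normal mean was 0.39 to 1.64 in adoptive-transfer tumors, with a group median of 1.18, and 0.38 to 1.92 in spontaneous tumors, with a group median of 0.97. The same median over the 3 tested end joining genes was -0.47 to 0.74 and -0.20 to 0.47, with group medians of 0.06 in both kinds. The recombination median exceeded the end joining median in 14 of 14 adoptive-transfer and 10 of 11 spontaneous tumors. The exception was spontaneous tumor 7, where the recombination median was 0.38 and the end joining median, there the value of Xrcc6, was 0.47. In normal samples the recombination minus end joining value was -0.13 to 0.04. Their own mean is the reference here, so these values lie near it by construction and are no separate baseline. With means over the same genes, a summary chosen after seeing the data, tumor 7 was at 0.64 for recombination and 0.06 for end joining, and recombination was the higher in 14 of 14 and 11 of 11 tumors, by 0.38 to 1.56 and by 0.58 to 1.18. Both summaries cover members called in opposite directions, Xrcc6 higher and Prkdc lower in the adoptive-transfer tumors. These medians are a description without a test, since the genes were listed with results of these data known.

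**Figure D3:**
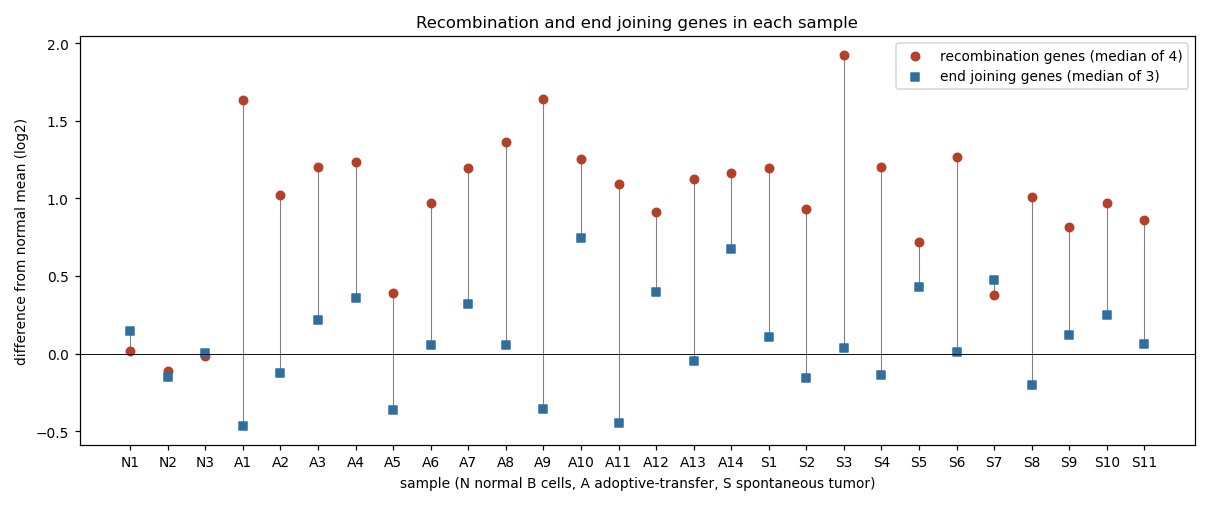
For each of the 28 samples, the median difference from the normal mean (log2) over the 4 tested recombination genes (circles) and over the 3 tested end joining genes (squares), joined by a line. N, A and S are normal, adoptive-transfer and spontaneous samples. Circles lie above squares in all adoptive-transfer tumors and in all spontaneous tumors except tumor 7.

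Between the tumor kinds no member was called, where 2.73% of all genes were called, 1.37% higher and 1.36% lower in adoptive-transfer tumors. Fancd2 was higher in adoptive-transfer tumors by 0.48 ± 0.19 (limma adjusted p = 0.183, 95% interval 0.09 to 0.88, 14 against 11 samples) and Xrcc6 by 0.45 ± 0.19 (limma adjusted p = 0.234, interval 0.05 to 0.84). Without adoptive-transfer tumor 5 these differences were 0.60 and 0.56, with limma adjusted p of 0.0242 and 0.0337. In that fit 565 of all genes (4.79%) were called against 322, and the count ran from 170 to 565 over single left-out samples. Over all alternatives the adjusted p of these genes ranged from 0.0147 to 0.472 and from 0.0194 to 0.493. The other members differed by -0.09 to 0.06, with 95% intervals from -0.35 to 0.17 for Brca1, -0.35 to 0.26 for Brca2, -0.27 to 0.36 for Rad54l, -0.33 to 0.24 for Lig4 and -0.22 to 0.34 for Prkdc. Differences smaller than these bounds were not resolved by 14 and 11 samples.

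In the wider lists of recombination, end joining and break sensing genes the called counts lay near or below the shares over all genes, of which 36.5% and 36.4% were called, so they describe single genes and say nothing about a list. Of 25 tested further genes of recombination and the Fanconi pathway, the adoptive-transfer kind had 5 called higher and 1 called lower, and the spontaneous kind 5 and 2. The list medians were 0.38 in both, beside 0.10 and 0.08 over all genes tested. Xrcc3, which acts in homologous recombination, was detected in no normal sample and in all 25 tumors, so it passed the filter through tumors alone. Its level was at least 3.14-fold higher in adoptive-transfer (limma adjusted p = 1.72e-05) and at least 5.62-fold higher in spontaneous tumors (limma adjusted p = 1.72e-07). Rad54b, a relative of Rad54l, rose by 1.73 and 1.81 (limma adjusted p = 8.69e-06 and 6.69e-06), without overlap. Blm, the helicase that dissolves joint molecules, rose by 1.18 and 1.42 (limma adjusted p = 0.00525 and 0.00132), and scaling arrays by their medians left it uncalled at 0.74 and 1.00. Fancl, the ubiquitin ligase that acts on FANCD2, fell by 0.98 and 1.20 (limma adjusted p = 0.0128 and 0.00316), opposite to its substrate's gene, and without normal sample 1 it was at -0.89 in adoptive-transfer tumors and not called. Slx4, a scaffold for nucleases, fell by 0.75 in spontaneous tumors (limma adjusted p = 0.0226), a call lost when any 1 normal sample was left out, at -0.80 to -0.71.

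Among 12 further end joining genes, 2 were called higher and 2 lower in each tumor kind, with list medians of -0.0047 and 0.10. Lig3 and Lig1, ligases of alternative end joining and of replication and excision repair, rose. Lig3 increased by 2.13 and 1.73 (limma adjusted p = 3.46e-07 and 1.17e-05) and was higher in every tumor than in every normal sample. Lig1 rose by 0.97 and 0.89 (limma adjusted p = 0.00133 and 0.00358), but by an uncalled 0.49 and 0.45 with median scaling and 0.47 and 0.44 as a mean over its detected probes. Polm, a polymerase that fills gaps at joined ends, fell by 1.18 and 1.10 (limma adjusted p = 0.00100 and 0.00244). Parp1, the poly(ADP-ribose) polymerase that senses breaks, fell by 0.87 and 0.89 (limma adjusted p = 0.0142 and 0.0134), and it was not called without normal sample 2 or 3, with values of -0.88 to -0.85. Xrcc4, which encodes the partner of the Lig4 protein, differed by 0.13 ± 0.19 in adoptive-transfer tumors (limma adjusted p = 0.639).

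Of 20 tested genes of break sensing and checkpoint control, 5 were called higher and 3 lower in each tumor kind, with list medians of 0.14 and 0.20. Atm, the kinase that signals breaks, fell by 2.19 and 1.96 (limma adjusted p = 0.000176 and 0.000803), from a mean of 10.2 in normal B cells to 7.99 and 8.22, without overlap. Rad9a, part of the checkpoint clamp, fell by 0.91 and 1.36 (limma adjusted p = 0.00134 and 1.58e-05). Clspn, the claspin adaptor through which ATR activates CHK1, rose by 2.15 and 2.49 (limma adjusted p = 6.88e-06 and 1.06e-06). Cdc25a, the phosphatase that CHK1 restrains, rose by 1.19 and 1.44 (limma adjusted p = 0.00208 and 0.00041). Mre11a, the end-resecting nuclease, rose by 0.87 in adoptive-transfer tumors (limma adjusted p = 0.00457), and H2ax, the histone marked at breaks, rose by 1.01 in spontaneous tumors (limma adjusted p = 0.00455). With median scaling Mre11a and H2ax were at 0.40 and 0.59 and were not called. As a mean over its detected probes Mre11a was at 0.41 in adoptive-transfer tumors, also not called (limma adjusted p = 0.112). Of 4 tested class switching genes, Ung, which removes uracil from DNA, rose by 1.26 and 1.30 (limma adjusted p = 0.00126 and 0.00119), and Apex1, which cuts the resulting abasic site, by 1.37 and 1.49 (limma adjusted p = 0.0496 and 0.037). With median scaling Ung was at 0.80 and 0.86, Apex1 at 1.03 and 1.09 and Cdc25a in adoptive-transfer tumors at 0.80, none of them called. The Apex1 call was weak. In adoptive-transfer tumors it failed the threshold under 32 of 44 alternatives, among them leaving out any 1 normal sample or any 1 spontaneous tumor, and in spontaneous tumors under 10. With the cell cycle covariate described below Apex1 was instead called lower, by -1.47 and -1.65 (limma adjusted p = 0.0344 and 0.0309). Between the tumor kinds Xrcc3 was the only gene of these 4 lists to be called, lower in adoptive-transfer tumors by 0.84 ± 0.23 (limma adjusted p = 0.0442, range over alternatives 0.0191 to 0.198).

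**Figure D4:**
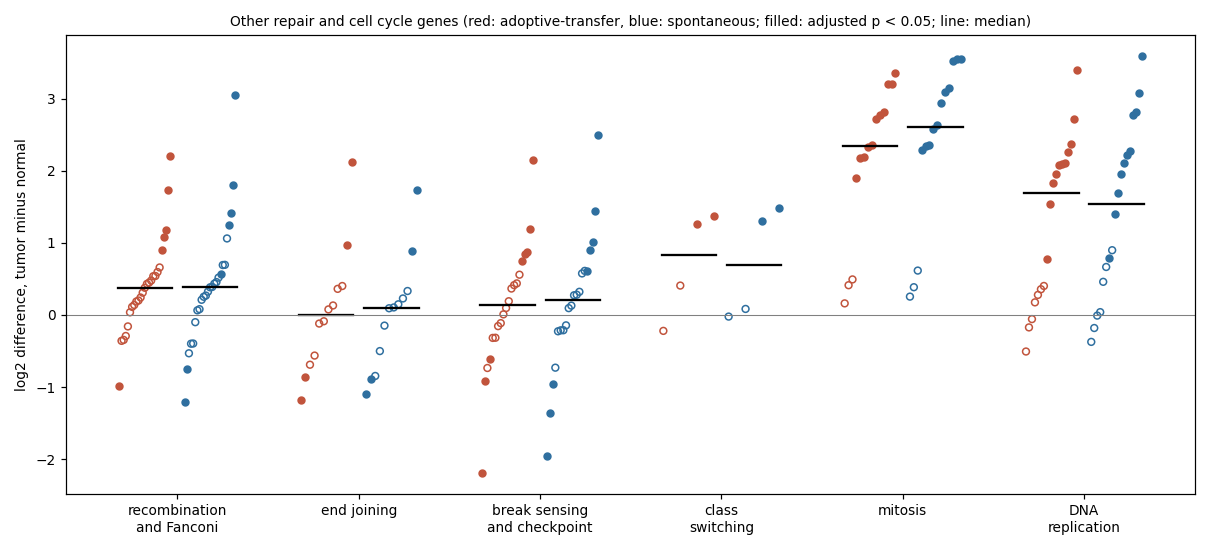
Log2 difference from normal B cells of every tested gene of the 4 repair lists and 2 cell cycle lists, in adoptive-transfer (red) and spontaneous (blue) tumors, with filled points called at adjusted p under 0.05 and lines at the list medians. Mitosis and DNA replication genes have list medians between 1.55 and 2.61, whereas the repair lists other than class switching have medians between -0.0047 and 0.38.

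Genes of proliferation were higher in the same tumors. Of 14 tested mitosis genes 11 were called higher and none lower in each tumor kind, with medians of 2.35 and 2.61, and of 18 DNA replication genes 11 were called higher and none lower, with medians of 1.69 and 1.55. Over all genes tested, 19.8% and 18.5% were called higher in the adoptive-transfer and spontaneous kinds. Of the 21 listed mitosis genes, 11 were detected on no normal array, so some of the 14 tested passed the detection filter through tumors alone. For such genes a higher level in tumors is partly built in by the filter, and their normal values lie near background. Cdk1, the mitotic kinase, was 9.24-fold and 11.7-fold higher, and Cdc6, which loads the replicative helicase, was 10.6-fold and 12.1-fold higher (limma adjusted p from 1.99e-08 to 2.06e-05 for these values). Birc5 and Cdc20, which act in chromosome segregation, rose by 3.37 and 3.21 in adoptive-transfer and by 3.55 and 3.52 in spontaneous tumors. Cdc45, a part of the replicative helicase, rose by 2.72 and 3.09, Tyms, which makes thymidylate, by 2.37 in adoptive-transfer tumors and Rrm2, a ribonucleotide reductase subunit, by 2.81 in spontaneous tumors (limma adjusted p from 8.91e-11 to 5.90e-05 for these 8 values). The mean over the 32 tested mitosis and replication genes was 6.50 to 6.55 in normal B cells, 6.82 to 8.91 in the adoptive-transfer kind and 8.01 to 8.97 in the spontaneous kind. It was lowest among tumors in adoptive-transfer tumor 5, which also had the lowest Fancd2, Rad54l and Xrcc6 of its kind and the highest T cell, neutrophil and erythroid marker means given above.

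With this cell cycle mean as a covariate no recombination member and no higher end joining member was called, while 28.2% and 24.0% of all genes were. The Fancd2 difference became 0.63 ± 0.38 and 0.02 ± 0.41, that of Rad54l 0.63 ± 0.28 and 0.46 ± 0.30, that of Brca2 0.62 ± 0.37 and 0.66 ± 0.40, and that of Xrcc6 0.29 ± 0.43 and -0.25 ± 0.47. Prkdc remained called, with -1.08 ± 0.33 and -1.18 ± 0.35 (limma adjusted p = 0.0138 and 0.015, where the range over alternatives was 0.000115 to 0.118 and 1.13e-05 to 0.0838). Normal B cells and tumors did not overlap on the cell cycle mean, so tumor state and proliferation cannot be told apart in these fits. Of the listed repair genes, Atm was still called with this covariate at -2.95 and -2.80, while Rad54b at 0.39 and 0.32 and Clspn at 0.34 and 0.49 were not. Rad9a at -0.51 and Polm at -0.84 were also not called in adoptive-transfer tumors (limma adjusted p = 0.257 and 0.143). With the fibroblast and matrix mean as a covariate, which also separates normal B cells from tumors, the genes called over the whole array fell in number from 4311 to 1529 and from 4301 to 1646. Fancd2 was called in adoptive-transfer tumors at 1.44 ± 0.46 and not called in spontaneous tumors at 0.97 ± 0.46. Rad54l remained called at 1.62 ± 0.38 and 1.57 ± 0.37, and Brca2 and Xrcc6 were not called. Prkdc was not called either, although its differences of -0.80 ± 0.33 and -0.86 ± 0.33 were no smaller than without the covariate. Among the listed repair genes not called with the fibroblast covariate in adoptive-transfer tumors were Atm at -1.43 and Xrcc3 at 1.17 (limma adjusted p = 0.155 and 0.130). With the exocrine pancreas mean as a covariate Prkdc differed by -0.58 ± 0.23 in spontaneous tumors and Brca2 by 0.66 ± 0.27, both uncalled there.

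Within tumors, 7 members were set against the cell cycle mean in each tumor kind, a family of 14 relations with permutation p adjusted over it. Among the 11 spontaneous tumors Brca2 had r = 0.89 (permutation p = 0.000100, adjusted p = 0.0014) and rho = 0.88 (adjusted permutation p = 0.0113), with r = 0.82 without tumors 3 and 4, which lay farthest from the median. Fancd2 had r = 0.83 and rho = 0.78 (adjusted permutation p = 0.00854 and 0.0431), and r = 0.77 without those tumors. For Xrcc6 r was 0.87 and rho 0.71 (adjusted permutation p = 0.00854 and 0.0673), and r was 0.66 without them. For Rad54l r was 0.73 and rho 0.53 (adjusted permutation p = 0.0387 and 0.203), and the relation weakened to 0.45 without them. Brca1, Lig4 and Prkdc had r of -0.18, -0.53 and 0.49 (adjusted permutation p from 0.172 to 0.642).

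Among the 14 adoptive-transfer tumors Rad54l had r = 0.78 and rho = 0.63 (adjusted permutation p = 0.0133 and 0.0673), and r = 0.61 without tumors 1 and 5. Lig4 had r = 0.59 and rho = 0.46 (adjusted permutation p = 0.0483 and 0.203), and r = 0.50 without them. The r of Fancd2, 0.61 (rho = 0.31, adjusted permutation p = 0.0845 and 0.480), rested on tumors 1 and 5, since it was -0.03 without them. Brca2 had r = -0.29 (rho = -0.14, adjusted permutation p = 0.375 and 0.723) and Xrcc6 r = 0.36 (rho = 0.13, adjusted permutation p = 0.270 and 0.723). Whether r differed between the tumor kinds was not tested.

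**Figure D5:**
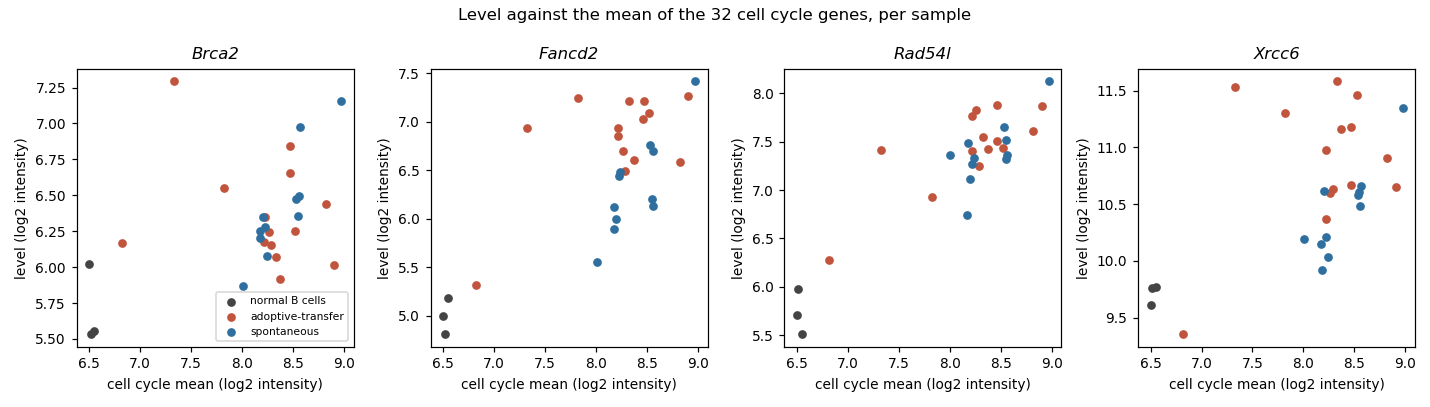
Level of Brca2, Fancd2, Rad54l and Xrcc6 (log2 intensity) against the mean of the 32 mitosis and DNA replication genes (log2 intensity) in each of the 28 samples, coloured by group. Normal samples lie between 6.50 and 6.55 on the horizontal axis, apart from all tumors, and adoptive-transfer tumor 5 at 6.82 lies nearest to them.

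The members also varied among themselves across the 25 tumors once the mean of each tumor kind had been taken off. Fancd2 and Rad54l went together (r = 0.71), as did Fancd2 and Xrcc6 across the repair routes (r = 0.72), while Brca2 and Lig4 ran opposite (r = -0.49). The 6 pairs within recombination had a median r of 0.28, the 12 pairs across routes 0.12 and the 3 pairs within end joining -0.15. These values are descriptions over tumors that share arrays, tissue makeup and normalization. By the same measure the genes most like Fancd2 were Prc1 (0.82), Psmb2 (0.80) and Pfas (0.80), and those most like Rad54l were Fam122b (0.85), D6Wsu163e (0.84) and Fen1 (0.83), of which Fen1 encodes the flap endonuclease of DNA replication. Nearest to Xrcc6 were Ndufb8 (0.94), Ncl (0.93) and Acbd6 (0.91), with Ncl encoding nucleolin. Nearest to Brca2 were Stag1 (0.82), Pfdn1 (0.81) and Cyp2u1 (0.79). For members near background the highest values were lower, with Htr2a (0.73), Cabyr (0.73) and Ptpn21 (0.67) for Brca1, Mettl9 (0.71), Homer1 (0.71) and Msmo1 (0.70) for Lig4, and Csmd1 (0.66), Rgs3 (0.66) and Art5 (0.65) for Prkdc.

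Age was recorded for every sample, and among the 11 spontaneous tumors, aged 40 to 162 days, a slope on age was fitted. No member was called, and 0 of 11804 genes (0%) were called by limma, while 1339 had an unadjusted p under 0.05. Brca2 had a slope of -0.67 ± 0.20 log2 units per 100 days (unadjusted p = 0.00653, limma adjusted p = 0.275), and Rad54l and Xrcc6 had slopes of -0.49 ± 0.22 and -0.55 ± 0.25 (limma adjusted p = 0.428 and 0.433). Without tumor 3, the youngest at 40 days and the highest for Brca2, Fancd2, Rad54l and Xrcc6, these slopes were -0.49, -0.19 and -0.15.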

How the data were processed

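RNA of 28 samples was measured on Illumina bead arrays. The authors deposited a table of linear probe intensities with a detection score per probe and array, per the file headers, and a table of log2 values. The deposited intensity is not background-subtracted or normalized. The deposited detection score is high for bright probes, and 1 minus the score was used as detection p. The deposited log2 values had the same median of 7.15 in every column and ranked probes as the intensities did (rank correlation at least 0.999996). The columns were therefore brought to a common level, but other quantiles were not compared, so the method of normalization was not settled. The submitters' processing notes name Partek, with no version or role. The chip or slide of a sample is not given in the sources used here, so it could not be tested as a batch.

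From the intensities, log2 values were computed in R 4.3.3 with limma 3.58.1 (files were read with version 1.17.8 of data.table), by neqc (background from the detection p, offset 16, quantile normalization). Of 45281 probes, 34885 had 1 listed symbol, 18 several and 10378 none, and only the first were used as genes. The probe with the highest mean stood for its gene, which was tested if detected (p under 0.05) on at least 3 arrays, which left 11804 genes. A limma model with 3 group means was fitted, and a second one to 22537 probes, with two-sided tests and Benjamini-Hochberg adjustment. Scripts were tested on simulated data. The alternatives were median scaling, other background corrections, the deposited values, other filters and probe summaries, other variance models, covariates and left-out samples. Permutation tests of correlations used 100000 resamples.

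The members and gene lists were chosen with earlier results of these data known. Named genes were all members and, from each list and comparison, the 3 called genes with the highest positive and the 2 with the lowest negative difference. For each member the 3 genes with the highest r across tumors were also named. Xrcc4 was named after its values were seen.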

Additional observations from a re-analysis of the deposited data

Results flagged for a closer look

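Xrcc3 was the only gene of the recombination, end joining, break sensing and class switching lists whose rise over normal B cells differed between the tumor kinds by the test of that difference. Its mean level was 6.78 in adoptive-transfer and 7.62 in spontaneous tumors, against 4.57 in normal B cells, where it was not detected. The difference between the kinds was -0.84 ± 0.23 (log2, SE, adoptive-transfer minus spontaneous, 14 against 11 samples; limma adjusted p = 0.0442), and 5 of 14 adoptive-transfer tumors were below all spontaneous ones. The call was lost under 26 of 44 alternatives, while the sign was kept under all 44, with values from -0.94 to -0.43 and limma adjusted p from 0.0191 to 0.198. The kinds also differ in tissue, and exocrine pancreas markers averaged up to 14.6 in spontaneous and up to 8.70 in adoptive-transfer tumors; with that mean as a covariate the difference was -0.71. The part of the pancreas signal in this result was not tested further.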

How the results depend on the processing

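Of the counts of called members, no recombination member was ever called lower. Against normal B cells the count of 3 recombination members called higher was 2 to 3 in both kinds when a sample was left out, was 2 in both with median scaling or no background correction and in adoptive-transfer tumors with the deposited values, became 0 in both with the cell cycle covariate and 1 in spontaneous tumors with the fibroblast covariate. Over all alternatives its highest value was 4 in spontaneous tumors and 3 in adoptive-transfer tumors. The 1 end joining member called higher in adoptive-transfer tumors became 0 with median scaling and with either of those covariates, and the 1 called lower became 0 with the fibroblast covariate, with a range of 0 to 1 over left-out samples. In spontaneous tumors 0 end joining members higher became 1 with the mean over probes, with only the compared groups, with array weights, without adoptive-transfer tumors 1 and 5, and over left-out samples (0 to 1), and 1 lower became 0 with the fibroblast or pancreas covariate (left-out samples 0 to 1). With the replicate block, the replicate number as a block, that spontaneous count of end joining members higher also became 1 (Xrcc6 at 1.14), and the block changed no other count of called members. Deviations of same-numbered samples from their group means had correlations of -0.08 to 0.22, above 0.1 in 3 of 11 pairs of tumors and in none with normal samples. Samples of unlike number were not compared, so these values cannot settle whether the numbers pair samples. The numbers were used here as names only, except in that block. Between the tumor kinds 0 recombination members higher became 1 with array weights, the cell cycle covariate, and without tumors 1 and 5 (left-out samples 0 to 1), and 0 end joining members higher became 1 with array weights and without tumors 1 and 5 (left-out samples 0 to 1). The share of all genes called also moved. With array weights it was 61.1% and 60.7% against normal B cells and 7.57% between the kinds. Without adoptive-transfer tumors 1 and 5 it was 46%, 44.5% and 5.99%. The fibroblast covariate gave 13%, 13.9% and 3.79%, and the cell cycle covariate 28.2%, 24% and 4.19%. In the main fit it was 36.5%, 36.4% and 2.73%, so changed counts of members are not results about the members alone.

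Probes called higher in adoptive-transfer tumors, 7, became 3 with median scaling, 0 with the cell cycle and 2 with the fibroblast covariate (left-out samples 4 to 7), and the 2 called lower became 0 with the fibroblast covariate (left-out samples 1 to 2). In spontaneous tumors 5 probes higher became 3 with median scaling or the deposited values, 2 without background correction, 9 with array weights, 0 and 1 with the cell cycle and fibroblast covariates, and 8 without tumors 1 and 5 (left-out samples 2 to 7), and 2 lower became 1 with the fibroblast or pancreas covariate (left-out samples 1 to 2). Over all alternatives this count of probes lower reached at most 3. The shares of all genes called in several of these settings are given above. Between the kinds 0 probes higher became 3 with array weights, 1 with the cell cycle covariate and 1 without tumors 1 and 5 (left-out samples 0 to 2). The recombination minus end joining medians of 0.95 and 1.09 became 0.38 and 0.33 without background correction and 0.42 and 0.38 with the deposited values, and were 0.93 and 1.08 with means over members, an alternative added after seeing the data. Of the adoptive-transfer correlations, 2 members with adjusted p under 0.05 became 1 with the deposited values, the mitosis list or the replication list, and 0 without tumors 1 and 5.

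The sign turned in the following cases. With the cell cycle covariate Lig4 was -0.37 in both kinds, Blm -0.67 and -0.63, Ung -0.13 and -0.23, Apex1 -1.47 and -1.65, Rrm2 -0.18 and Xrcc6 -0.25 in spontaneous tumors. Lig4 was also -0.12 (adoptive-transfer) and -0.0088 (spontaneous) with the replicate block, and in adoptive-transfer tumors it ran from -0.0015 (without normal sample 2) to 0.15 over left-out samples. Between the kinds Brca1 was 0.11 and Prkdc -0.12 and Rad54l -0.12 with the pancreas covariate, Brca2 0.0026 and Prkdc -0.020 with the replicate block. Over left-out samples Brca2 ran from -0.11 to 0.033 (above 0 without spontaneous tumor 3 or 4), Rad54l from -0.016 (without spontaneous tumor 5) to 0.14 and Lig4 from -0.098 to 0.0043 (above 0 without spontaneous tumor 5 or 7). Rad54l was -0.0068 with median scaling, and Lig4 was 0.049 with array weights, 0.00068 with the cell cycle covariate and 0.026 without tumors 1 and 5. The adoptive-transfer r values of Fancd2, Xrcc6 and Prkdc were -0.028, -0.15 and -0.28 without tumors 1 and 5. Median scaling moved the median of all genes from 0.10 to -0.08 and from 0.08 to -0.07, and the share of calls that were higher to 33.3% and 32.2%, and it left 140 genes called between the kinds against 322. The cause of these changes was not tested. Signal over background limits Brca1, Lig4 and the second probes, which were undetected on many arrays, and Chek1 and Xrcc5, which were undetected on all.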
